A study of Rattus with 4 samples.

Results

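The nuclear pore complex is a ring of nucleoporins that spans the nuclear envelope, and soluble receptors of the importin and exportin families carry proteins and RNA through it. Importin alpha proteins recognise the nuclear localisation signal of a cargo and bind importin beta, which contacts the pore, while exportins leave the nucleus with their cargo and the GTPase Ran. Lamins form the filament layer beneath the inner nuclear membrane and are linked across the envelope to the cytoskeleton by SUN and nesprin proteins. The genes of this machinery were taken by symbol alone. No measured value entered the rule, but it was chosen with earlier results of these data known. They were all protein-coding rows that named a numbered nucleoporin (Nup), a karyopherin (Kpna, Kpnb), a numbered importin (Ipo) or exportin (Xpo), a transportin (Tnpo), lamin A/C or a B-type lamin, with Xpo5 left out. This gave 42 of the 13731 genes listed, namely 17 nucleoporins, 7 importin alpha genes, 11 import receptors of the importin beta family, 4 exportins and 3 lamins.

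RNA was sequenced from 2 libraries precipitated with an antibody to NONO, a nuclear RNA-binding protein of paraspeckles (NONO IP), and from 2 libraries of input RNA taken with no antibody. In RNA immunoprecipitation sequencing, RNA recovered with a protein is read beside the RNA it was drawn from. The cells were cultured rat cardiac cells of a single line, called cardiac fibroblasts in the growth conditions and H9C2, a heart myoblast line, in the titles. The cell type label also gives the NONO IP libraries a NONO siRNA and the inputs an empty vector, so precipitation and knockdown cannot be told apart, and no control antibody was among the 4 libraries. The labels do not say whether replicates were separate cultures, and a p-value here covers only the spread of the 4 libraries.

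Gene counts summed to between 264059 and 279410 in the NONO IP and between 238776 and 249548 in the inputs. Levels are given as scaled CPM, reads set to a common total of the tested genes after TMM scaling, on which 3 reads are worth 10.2 to 15.9 CPM. Nono itself had 3 and 3 reads in the NONO IP and 21 and 9 in the inputs, a ratio of inputs to NONO IP of 7.51 (exact conditional 95% interval 3.07 to 22.1, counting error only). Fibroblast markers held 39747 NONO IP reads and 38011 input reads, nearly all on collagen genes, with 9 of 10 listed. Lum was not listed, Dcn had 0 NONO IP and 4 input reads, and Tcf21 had 8 and 5. Vim had 437 NONO IP and 645 input reads, Ddr2 58 and 69, Pdgfra 62 and 20, and Thy1 34 and 23. Of the 7 skeletal myoblast markers 5, Myod1, Myog, Myf5, Pax7 and Chrna1, were not found among the listed genes. Skeletal myoblast markers summed to 7 NONO IP and 21 input reads, on Des and Myh3 alone. Cardiomyocyte markers summed to 155 NONO IP and 105 input reads, of which Tnnt2 held 123 NONO IP and 55 input reads, while Myh6 had 13 and Myh7 had 4 NONO IP reads against 21 and 20 input reads. Smooth muscle markers summed to 709 NONO IP and 1050 input reads, and leukocyte markers to 3 NONO IP and 26 input reads. These are raw reads and do not give a direction. Equal reads, as for Actn2 with 5 and 5, are a ratio of NONO IP to inputs of 0.666 per scaled library. Col1a1, with 23201 NONO IP and 20647 input reads, was thus lower at 0.748, while Tnnt2 was higher at 1.49. The part of these cell types in the results was not tested. Fewer cells of a type cannot be told apart from less RNA per cell or from the precipitation itself.

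Most genes of the nuclear pore and transport machinery were sparsely read, as were most of all 13731 genes listed, of which 2920 passed the count filter. Of the 42 genes, 17 had 10 or fewer reads over all 4 libraries, and 13 passed the count filter of the edgeR quasi-likelihood test, where every gene tested had at least 23 reads. Of those 13, 4 rose in the NONO IP (Kpna3, Kpna7, Kpna4 and Xpo1), 2 fell (Lmna and Ipo5) and 7 did not pass an adjusted p under 0.05. Among all 2920 genes tested, 29.8% rose and 26.9% fell. The 13 tested genes include 9 with fewer than 23 input reads, which reached the filter with the help of their NONO IP reads, so this count is a description. With no count filter all 42 genes were fitted, and the same 4 genes rose while Lmna fell. That is 9.52% and 2.38% of the 42, against 8.59% and 4.73% of all 13731 genes, so the share that changed lay near the background. The median log2 fold change of the 42 in that fit was −0.03, and that of all genes was 0.30.

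**Figure D1:**
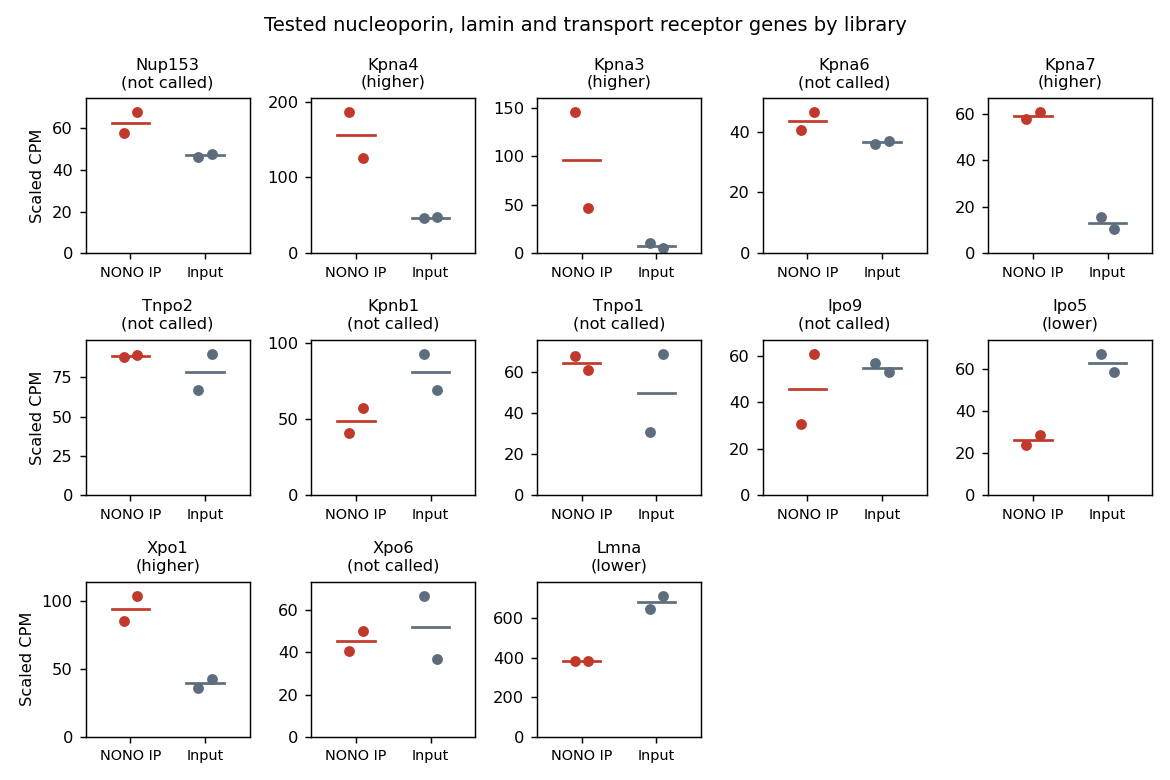
Scaled CPM (vertical axes, starting at 0) of the 13 genes that passed the count filter, in the NONO IP libraries (red) and the inputs (grey); points are libraries 1 and 2 and bars are group means. Kpna4, Kpna3, Kpna7 and Xpo1 have both NONO IP points far above both input points, with Kpna3 at 146 and 46.4 CPM in the NONO IP, and Lmna and Ipo5 have them below.

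The importin alpha genes, which encode the adaptors that read nuclear localisation signals, held the genes with the largest increases of the machinery. Together the 7 genes had 136 and 90 reads in the NONO IP and 24 and 25 in the inputs. That is 460 and 322 scaled CPM in the NONO IP, against 124 and 132 in the inputs, with no overlap between the groups. Kpna3 and Kpna4, which encode 2 closely related adaptors of one subfamily, supplied 64.6% of these NONO IP reads and 42.9% of the input reads. On the deposited RPKM scale the 7 genes summed to 28.0 and 23.2 in the NONO IP and to 11.1 and 12.7 in the inputs, so the NONO IP was the higher group there too, although the library total that divides its RPKM values is larger.

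Kpna3, on chromosome 15, had 43 and 13 reads in the NONO IP and 2 and 1 in the inputs. The groups did not overlap, but the NONO IP libraries differed from each other by more than those of any other tested member. Kpna3 averaged 96.0 ± 70.1 CPM in the NONO IP and 7.80 ± 3.54 CPM in the inputs (SD, n = 2 each), and rose by a log2 fold change of 3.55 (SE 0.75, edgeR adjusted p = 0.000672). The ratio of reads per scaled library was 12.4, with an exact conditional 95% interval of 4.04 to 62.1 for counting error, since the inputs held only 3 reads. In RefSeq's GRCr8 annotation the pseudogene Rps20-ps1 lies inside Kpna3, and the lncRNA gene LOC120097005 overlaps part of it. Neither was among the genes listed, so reads from them could not be set apart. The call ended without NONO IP replicate 1, at 2.54 (edgeR adjusted p = 0.0659), and by limma on the RPKM scales, at 1.91 with a pseudocount of 1 (adjusted p = 0.0796, and 0.149 without a filter) and 2.67 with 0.1 (adjusted p = 0.0897).

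Kpna4, on chromosome 2, had 55 and 35 reads in the NONO IP and 9 and 9 in the inputs. It averaged 156 ± 43.3 CPM in the NONO IP and 47.0 ± 0.893 CPM in the inputs (SD, n = 2 each). The groups did not overlap, and Kpna4 rose 3.30-fold, by 1.72 on the log2 scale (SE 0.35, edgeR adjusted p = 0.000478). In RefSeq's GRCr8 annotation the small Cajal body RNA gene Scarna7 lies inside Kpna4. Its own row had 58 and 18 reads in the NONO IP and 36 and 28 in the inputs, which overlap. Kpna4 lost its call on the RPKM scales, where its log2 fold change was 0.76 with a pseudocount of 1 (limma adjusted p = 0.136, and 0.219 without a filter) and 1.00 with 0.1 (limma adjusted p = 0.142).

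Kpna7, on chromosome 12, is known in mouse and cow as an importin alpha of oocytes and early embryos, and is of the same subfamily as Kpna2. It had 17 and 17 reads in the NONO IP and 3 and 2 in the inputs, which is 59.1 ± 2.24 CPM in the NONO IP and 13.0 ± 3.44 CPM in the inputs (SD, n = 2 each). The NONO IP libraries were alike and clear of the inputs, and Kpna7 rose by 2.14 on the log2 scale (SE 0.52, edgeR adjusted p = 0.00219). Significance was lost with the DESeq2 Wald test (adjusted p = 0.0797), without NONO IP replicate 2 (edgeR adjusted p = 0.0505) and on the unfiltered RPKM scale (limma adjusted p = 0.0773).

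The other importin alpha genes gave no call. Kpna6 had 12 and 13 reads in the NONO IP and 7 and 7 in the inputs, with a log2 fold change of 0.25 (95% interval −0.66 to 1.15, edgeR adjusted p = 0.674). Kpna1 had 9 and 9 against 3 and 3 and was left out by the filter; with no filter its log2 fold change was 1.19 (edgeR adjusted p = 0.284). Kpna2 had 0 and 3 reads in the NONO IP and 0 and 2 in the inputs, and Kpna5 had 1 input read only.

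**Figure D2:**
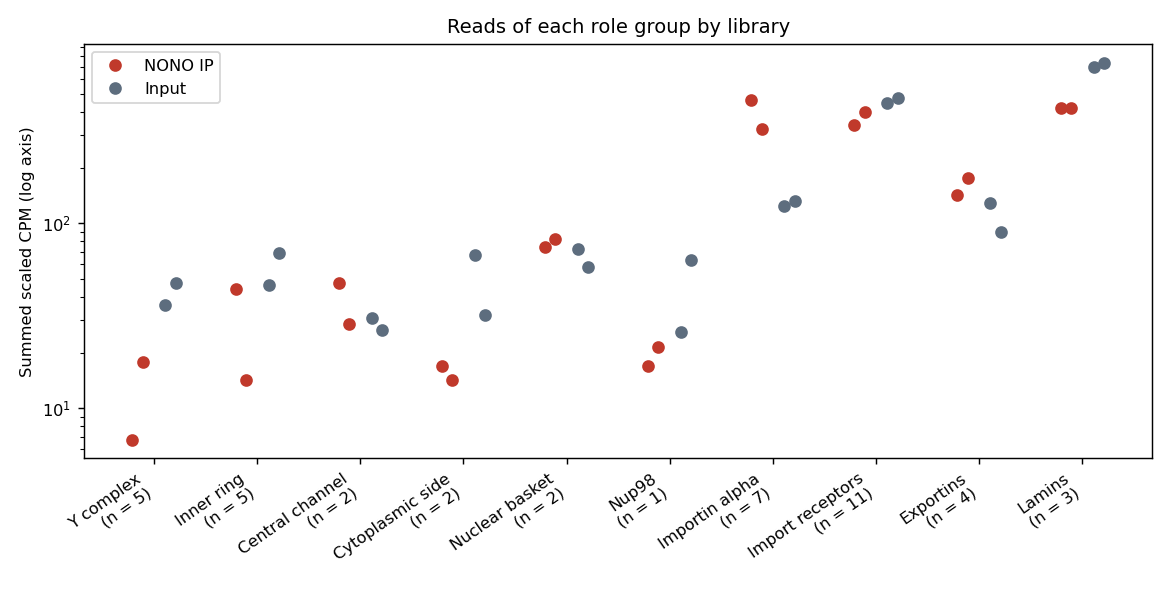
Summed scaled CPM (log axis) of each role group in the NONO IP libraries (red, left) and the inputs (grey, right), 1 point per library, with the number of genes in brackets. The importin alpha points of the NONO IP, at 460 and 322 CPM, stand above the inputs at 124 and 132. The exportin points (142 and 175 CPM against 129 and 90.0) and nuclear basket points (74.5 and 82.2 against 72.1 and 58.2) also stand above, by less. The Y complex, inner ring, cytoplasmic side, Nup98, import receptor and lamin points of the NONO IP stand below those of the inputs, and the central channel points overlap.

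The import receptors of the importin beta family, which bind the pore directly, held 1 gene that fell and none that rose among the 5 tested. Among all genes tested 26.9% fell and 29.8% rose, and 5 genes are too few to tell the group from that. Kpnb1, importin beta itself and the partner of importin alpha, had 12 and 16 reads in the NONO IP and 18 and 13 in the inputs. Its log2 fold change was −0.73 (95% interval −1.53 to 0.08, edgeR adjusted p = 0.114), so a fall beyond 2-fold was within the interval. Both of its NONO IP libraries lay below both inputs after scaling, at 48.9 ± 11.7 CPM in the NONO IP and 80.8 ± 16.9 CPM in the inputs (SD, n = 2 each). Ipo5, an importin known for carrying ribosomal proteins and histones, was the gene that fell. It had 7 and 8 reads in the NONO IP and 13 and 11 in the inputs, with no overlap, and a log2 fold change of −1.25 (SE 0.42, edgeR adjusted p = 0.0180). That call ended under 8 of the 14 other settings, among them each fit that left out 1 library (edgeR adjusted p from 0.0797 to 0.204) and library totals (edgeR adjusted p = 0.130).

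The transportins Tnpo1 and Tnpo2, which import RNA-binding proteins such as hnRNP A1, gave overlapping groups. Tnpo2 had 26 and 25 reads in the NONO IP and 13 and 17 in the inputs (log2 fold change 0.18, 95% interval −0.51 to 0.87, edgeR adjusted p = 0.668). Tnpo1 had 20 and 17 against 6 and 13 (0.37, 95% interval −0.51 to 1.26, edgeR adjusted p = 0.470). The lncRNA gene Eif5bl, which overlaps Tnpo1 in GRCr8, had 17 and 2 reads in the NONO IP and none in the inputs. Tnpo3, the importer of SR splicing factors, had 8 and 8 reads in the NONO IP and 4 and 8 in the inputs and was below the filter. Ipo9 had 9 and 17 reads in the NONO IP and 11 and 10 in the inputs (−0.27, 95% interval −1.18 to 0.63, edgeR adjusted p = 0.613). Its NONO IP libraries lay on either side of the inputs. Ipo4, with 5 and 8 against 13 and 7 reads, and Ipo8, with 7 and 6 against 4 and 4, were left out by the filter, and Ipo7, Ipo11 and Ipo13 had between 2 and 14 reads each over the 4 libraries.

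Among the exportins, Xpo1 rose. Xpo1 encodes CRM1, the general exporter of proteins with a leucine-rich export signal and of several RNA classes. It had 25 and 29 reads in the NONO IP and 7 and 8 in the inputs, or 94.1 ± 13.4 CPM in the NONO IP and 39.2 ± 4.44 CPM in the inputs (SD, n = 2 each), with clear separation. Xpo1 thus rose 2.38-fold, by 1.25 on the log2 scale (SE 0.39, edgeR adjusted p = 0.0113). Significance was lost with the DESeq2 Wald test (adjusted p = 0.144), without Input replicate 1 (edgeR adjusted p = 0.0622) and on the RPKM scales (limma adjusted p = 0.211 to 0.320, log2 fold change 0.50 to 0.59). Xpo6, the exporter of actin with profilin, had 12 and 14 reads in the NONO IP and 13 and 7 in the inputs, which overlap (−0.21, 95% interval −1.10 to 0.69, edgeR adjusted p = 0.705). Xpo4 had 2 and 3 against 3 and 1 reads, and Xpo7 had 3 and 3 against 2 and 1. Whether Xpo1 differed from the other exportins was not tested.

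Lamin A/C was the best-read gene of the machinery, and it fell in the NONO IP. Lmna, on chromosome 2, had 114 and 108 reads in the NONO IP and 126 and 135 in the inputs. After scaling, the NONO IP libraries were alike at 386 and 386 CPM and lay below the inputs at 649 and 714 CPM. Lmna changed by −0.82 on the log2 scale (SE 0.14, edgeR adjusted p = 8.03e-05), which is a level 1.76-fold lower in the NONO IP. The call held under all 14 other settings, with log2 fold changes between −1.48 and −0.36; the value nearest 0 came with library totals. The B-type lamins were sparse and gave overlapping groups, with 7 and 5 reads of Lmnb1 in the NONO IP and 6 and 2 in the inputs, and 3 and 5 of Lmnb2 in the NONO IP and 3 and 2 in the inputs.

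Nucleoporins, the structural proteins of the pore, were the most numerous group, and most were sparsely read. The 17 genes together had 61 and 50 reads in the NONO IP and 54 and 56 in the inputs. In scaled CPM that is 207 and 179 in the NONO IP, against 278 and 296 in the inputs. Both NONO IP libraries lay below both inputs for 9 of the 17 genes and above them for 2, Nup153 and Nup62. At so few reads this order leans on the scaling, since 1 read is worth 3.39 CPM in NONO IP replicate 1 and 5.15 CPM in Input replicate 1. Nup85, with 1 and 0 reads in the NONO IP and 1 and 1 in the inputs, therefore counts as below. Over all 42 genes the NONO IP lay below for 14 and above for 10, which is 33.3% and 23.8%; among all protein-coding genes these shares were 25.1% and 21.2%.

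Of the nucleoporins only Nup153, a protein of the nuclear basket, passed the count filter. Nup153 had 17 and 19 reads in the NONO IP and 9 and 9 in the inputs, with a log2 fold change of 0.41 (95% interval −0.42 to 1.24, edgeR adjusted p = 0.391). Nup50, its basket partner, had 5 and 4 reads in the NONO IP and 5 and 2 in the inputs. Nup62, of the central channel, had 12 and 7 reads in the NONO IP and 3 and 3 in the inputs. The separation of Nup62 is uncertain, because Atf5 overlaps it in GRCr8 and had 84 and 86 reads in the NONO IP and 41 and 39 in the inputs, and the strand setting of the counts is not given in the sources used here. With no filter the log2 fold change of Nup62 was 1.26 (edgeR adjusted p = 0.233). Nup58, also of the channel, had 2 and 1 reads in the NONO IP and 3 and 2 in the inputs.

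The scaffold and the outer faces of the pore gave few reads. The Y complex, which builds the outer rings, was represented by Nup107, Nup133, Nup160, Nup37 and Nup85, with 2 and 5 reads in the NONO IP and 7 and 9 in the inputs. Nup160 had none in the NONO IP and 1 and 4 in the inputs. It was 2.50-fold lower when 3 reads over the NONO IP group were taken as the floor, a value that treats the input reads as exact. The exact conditional interval for the ratio of inputs to NONO IP, which covers counting error only, began at 1.38. Nup188, of the inner ring, had 11 and 0 reads in the NONO IP and 7 and 9 in the inputs, so the groups overlap and the NONO IP libraries differ widely. Nup93, Nup155, Nup205 and Nup35, the other inner ring genes, had between 1 and 5 reads each.

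Nup214, on the cytoplasmic face, had 5 and 4 reads in the NONO IP and 11 and 5 in the inputs, and Nup88, its partner there, had none in the NONO IP and 2 and 1 in the inputs. Nup98, whose precursor is cut into a mobile nucleoporin and the Y complex subunit Nup96, had 5 and 6 reads in the NONO IP and 5 and 12 in the inputs. Rabep1, which overlaps Nup88 in GRCr8, had 26 and 21 reads in the NONO IP and 5 and 6 in the inputs. None of the 16 nucleoporins below the filter passed the edgeR test with no filter, where Nup160 had the lowest adjusted p, 0.104.

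The members that rose were of unlike length. Relative to the median tested gene, the length behind the counts was 0.372 for Kpna7, 0.932 for Kpna3, 1.01 for Xpo1 and 2.59 for Kpna4. It was 0.642 for Lmna and 0.997 for Ipo5. An offset for gene length kept all 6 calls, with Kpna4 at 1.14 in place of 1.72. Over the 23 members with at least 15 reads, the log2 fold change and log2 length had a Pearson r of −0.03 across genes, which share the same 4 libraries, and a Spearman rho of 0.01. Over all 2920 tested genes these were 0.09 and 0.26. Of the 23 members, 10 were left out by the filter and have no fold change in the filtered fit, so the values are not like for like.

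Levels of different genes can be set side by side per length, in RPKM within a group. In the NONO IP, Lmna averaged 40.0 ± 1.23 RPKM, followed by Kpna7 at 10.6 ± 0.728, Kpna3 at 6.79 ± 4.80, Xpo1 at 6.20 ± 1.07 and Tnpo2 at 5.11 ± 0.212 (SD, n = 2). In the inputs, Lmna averaged 112 ± 8.29 RPKM, followed by Kpnb1 at 11.3 ± 2.31, Tnpo2 at 7.15 ± 1.53, Ipo4 at 6.95 ± 2.79 and Ipo5 at 6.62 ± 0.615. Lmna stood clear of the rest in both groups, while in the inputs Tnpo2, Ipo4 and Ipo5 lay within their spread of each other, as did Kpna3, Xpo1 and Tnpo2 in the NONO IP. Each RPKM value was divided by a library total that was on average 2.38 times as large for NONO IP as for input libraries, which lowers RPKM in the NONO IP relative to scaled CPM.

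Partner genes of the pore, the Ran cycle and the envelope, which the symbol rule did not reach, were described from a list of 48 genes, of which 45 were listed and 15 were tested. Of those 15, 5 fell (33.3%, against 26.9% of all tested genes) and none rose by the edgeR test; 2, Syne3 and Lemd2, were higher at an unadjusted p under 0.05, and the DESeq2 Wald test also called none higher. With library totals 3 were called higher. With no filter 5 of the 45 fell (11.1%, against 4.73% of all genes), of which 4 were also called with it. The median log2 fold change of the 15 was −0.29, against 0.02 over all genes tested. Because the list was chosen with earlier results of these data known, these shares and medians are a description.

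Ranbp2 encodes the giant nucleoporin Nup358 of the cytoplasmic filaments. It had 3 and 3 reads in the NONO IP and 14 and 15 in the inputs, and fell by 2.80 on the log2 scale (SE 0.48, edgeR adjusted p = 0.000103). Tpr, the main filament protein of the nuclear basket, had 7 and 4 reads in the NONO IP and 15 and 18 in the inputs, and fell by 2.14 (SE 0.44, edgeR adjusted p = 0.000513). In both genes every NONO IP library lay far below every input.

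At the envelope, Syne1 encodes nesprin 1, a very large linker of the outer nuclear membrane, and Sun1 its inner membrane anchor. Syne1 had 24 and 23 reads in the NONO IP and 53 and 47 in the inputs (log2 fold change −1.67, SE 0.25, edgeR adjusted p = 2.58e-05). Sun1 had 12 and 20 against 24 and 29 (−1.31, SE 0.33, edgeR adjusted p = 0.0031). The paralog Sun2 was nearly level, with 39 and 34 reads in the NONO IP and 26 and 29 in the inputs (−0.18, 95% interval −0.73 to 0.37, edgeR adjusted p = 0.585). Syne2, encoding nesprin 2, had 17 and 24 against 21 and 18 (−0.51, 95% interval −1.21 to 0.19, edgeR adjusted p = 0.200). Syne2 was called lower only with an offset for gene length, at −1.62 without the replicate block (edgeR adjusted p = 0.00198) and with it (edgeR adjusted p = 0.000699). Syne1 was at −3.04 with that offset. Whether Sun1 differed from Sun2, or Syne1 from Syne2, was not tested.

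Lemd2, Lemd3 and Tmpo encode inner membrane or nuclear proteins of the LEM family, which tether chromatin, and none of them was called. Lemd2 had 33 and 24 reads in the NONO IP and 14 and 8 in the inputs (log2 fold change 0.78, 95% interval 0.02 to 1.55, edgeR adjusted p = 0.0755), and Lemd3 had 32 and 33 against 20 and 14 (0.35, 95% interval −0.29 to 0.98, edgeR adjusted p = 0.342). With library totals both were called higher, Lemd2 at 1.24 (edgeR adjusted p = 0.00644) and Lemd3 at 0.81 (edgeR adjusted p = 0.0280). In all, Lemd2 was called under 4 of the 14 other settings, among them the replicate block with the length offset (0.845, edgeR adjusted p = 0.0451). Leaving out each library in turn gave Lemd2 log2 fold changes from 0.39 to 1.19. The DESeq2 Wald test and limma on the RPKM scales called neither. Tmpo had 11 and 7 reads in the NONO IP and 8 and 15 in the inputs (−0.93, 95% interval −1.87 to 0.02, edgeR adjusted p = 0.0865). Xpot, the exportin of transfer RNA, had 11 and 14 reads in the NONO IP and 25 and 16 in the inputs, and fell by 1.29 (SE 0.37, edgeR adjusted p = 0.00744). The Xpot call ended under 6 of the 14 other settings and the Sun1 call under 3. The GTPase gene Ran and its activator gene Rangap1 were tested without a call, at 0.19 and −0.06 (edgeR adjusted p = 0.753 and 0.889).

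**Figure D3:**
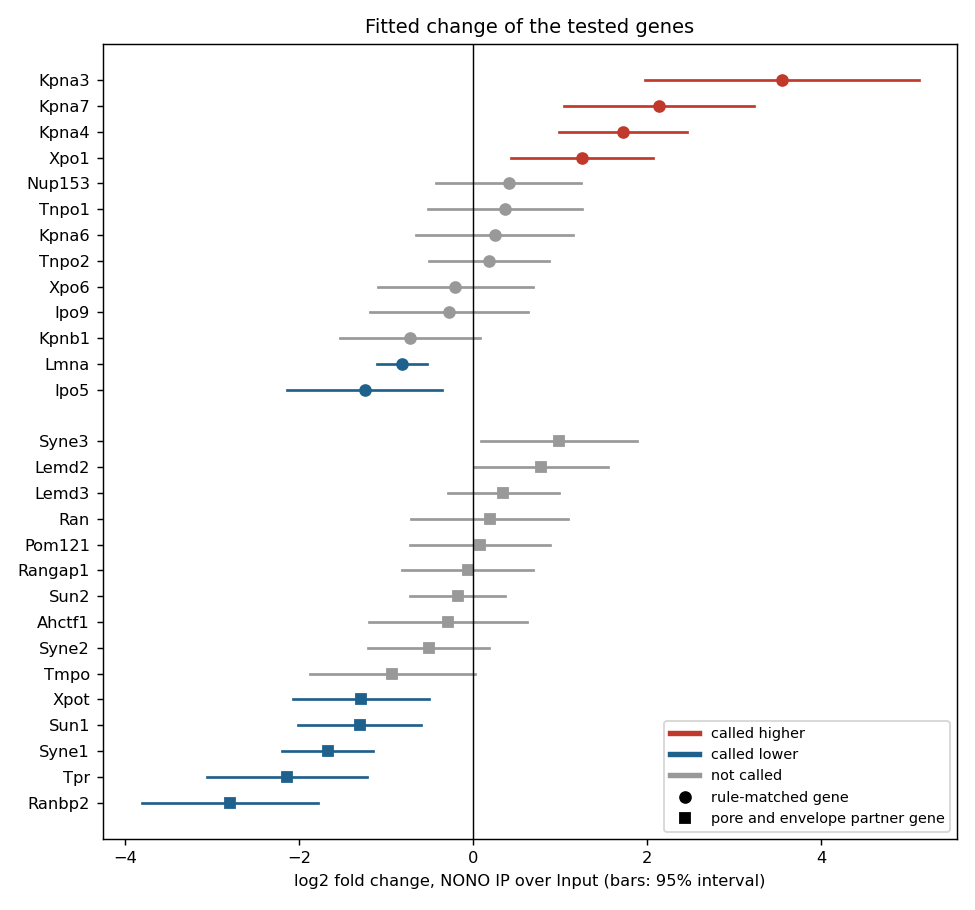
Fitted log2 fold change (horizontal axis, NONO IP over Input) with its 95% interval for the 13 tested members (circles) and the 15 tested partner genes (squares); red was called higher, blue lower and grey was not called. The members span 3.55 (Kpna3) to −1.25 (Ipo5), and the called partners lie between −1.29 (Xpot) and −2.80 (Ranbp2).

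The 6 calls were set against the scale of each analysis, since scaling moved all genes together. The median log2 fold change of all genes was 0.02 with TMM scaling, 0.48 with library totals, 0.30 with no count filter, and −0.61 and −0.82 on the RPKM scales with pseudocounts of 1 and 0.1. Kpna3, Kpna7, Kpna4 and Xpo1 stayed above 0 and Lmna and Ipo5 below 0 under all 14 other settings. Among the uncalled members named, Tnpo2 and Xpo6 each changed sides of the median of all genes under 2 settings, and Tnpo1 and Ipo9 under 1 each. Nup153 stayed above that median and Kpnb1 below it under all 14, though neither passed the test under any of them.

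**Figure D4:**
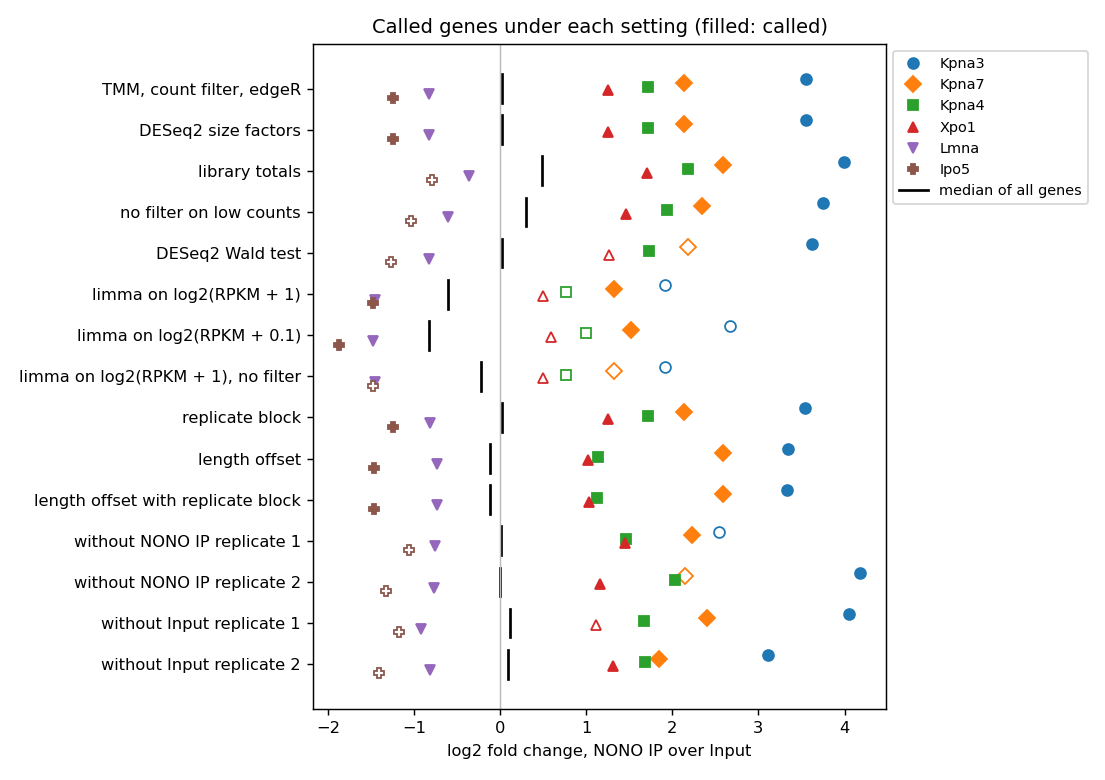
Log2 fold change (horizontal axis, NONO IP over Input) of the 6 called members under each of 15 settings (rows); filled symbols passed an adjusted p under 0.05, open ones did not, and black ticks mark the median of all genes tested. Kpna3, Kpna7, Kpna4 and Xpo1 lie to the right of the median in every row, and Lmna and Ipo5 to the left of it, with Ipo5 open in 8 rows.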

How the data were processed

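Per the file headers, the deposited tables hold whole read counts and RPKM values (reads per kilobase of gene, scaled by the authors to a library total) for 13731 genes in 4 libraries. HISAT2, HOMER and the build mRatBN7.2 are named, without a role, per the submitters' processing notes. For the counting program, strand setting, multi-read treatment and annotation release, nothing is given in the sources used here. Counts of overlapping genes or near-identical copies are therefore uncertain.

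Counts were tested with the quasi-likelihood test of edgeR 4.0.16 under R 4.3.3, after filterByExpr and TMM scaling (factors 1.17 and 1.18 for the NONO IP, 0.844 and 0.861 for the inputs), with Benjamini-Hochberg adjustment over 2920 genes and a threshold of 0.05. SE is the log2 fold change over the root of F, and 95% intervals use its t distribution. Relative gene length is counts over RPKM. RPKM alternatives used limma 3.58.1 with pseudocounts of 1 and 0.1 on the log2 scale, keeping genes that reached 1 RPKM in 2 libraries or keeping all; DESeq2 1.42.0 was another alternative. Folds against a group with no reads use a floor of 3 reads over the group. Intervals and floors cover counting error only. The fit was tested on simulated data, where it recovered 53.0% of the tested genes changed 2-fold and 95.5% of those changed 4-fold. A 2-fold change was thus often missed.

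Named genes were every member called, the 6 uncalled tested members with the most reads, members below the filter with at least 15 reads, and from the partner list up to 12 called and 4 uncalled genes; any further name was picked with its values in view. The members and lists were chosen with earlier results of these data known. Chi-square per degree of freedom between replicates was 1.42 in the NONO IP and 1.12 in the inputs, where 1 is sampling noise. All 42 members matched RefSeq's GRCr8 gene table, used for names and for which genes overlap. Of these, 19 were overlapped by another gene, 8 of them by a gene that was listed.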

Additional observations from a re-analysis of the deposited data

How the results depend on the processing

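The counts of called genes moved by more than 1.5 times under these settings. Higher calls over all genes numbered 453 with the DESeq2 Wald test, and 393, 348 and 132 by limma on log2(RPKM + 1), log2(RPKM + 0.1) and unfiltered log2(RPKM + 1), against 871. Lower calls numbered 444 with library totals, 423 with DESeq2 and 1425 on log2(RPKM + 1), against 786. Higher members numbered 2 with DESeq2 and 1, 1 and 0 on these 3 RPKM scales, against 4. Lower members numbered 1 with library totals, no count filter, DESeq2 and unfiltered RPKM, against 2, the lost gene being Ipo5. Higher partners numbered 3 with library totals and 1 with both the replicate block and the length offset, against 0, and lower partners 3 with DESeq2 and 0 on unfiltered RPKM, against 5. The cause was not tested. Leaving out each library gave 679 to 810 higher and 615 to 705 lower genes, 3 to 4 higher members and 1 lower member, and 0 to 1 higher and 4 to 6 lower partners.

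Higher genes made up 52.6% of calls, 73.3% with library totals, 64.5% with no count filter, 44.4% with the length offset and 21.6%, 23.3% and 18.9% on the RPKM scales. The named genes, with and without a call, gave 294 values under the 14 other settings. Of these, 252 kept their status as called or uncalled, 35 lost a call and 7 gained one. None that was called changed sign. The replicate number as a block called 870 genes higher and 806 lower and the same number of members, 4 and 2. Deviations of same-numbered libraries correlated at 0.052. With replicates differing by little more than sampling noise, that value cannot show whether the numbers pair the libraries. Depth limits the sparse members: 29 of 42 were below the filter, which passed 2920 of all 13731 genes.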
